A study of Drosophila melanogaster with 3 samples.

Results

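Member peaks were the CG31627-GFP peaks that lay at the start of a protein-coding gene with no divergent partner, and there were 1646 of them among 7717 peaks in all (21.3%). They came from chromatin immunoprecipitation and sequencing of whole Drosophila melanogaster white prepupae, animals at the onset of metamorphosis, of both sexes. The transgenic line stably expresses CG31627 with GFP at its C-terminus. It was precipitated with an antibody to GFP, while another label names the antibody after CG31627. All 3 libraries are biological replicates of that one group, and control data were not analysed here. A member had its summit, the highest point of the peak, within 500 bp of a start site of a protein-coding gene, and no such gene in that window had another protein-coding gene starting within 1000 bp upstream on the other strand. The peaks are the list that the authors cut by the irreproducible discovery rate (IDR), a measure of how well replicates rank the same peaks. Of the remaining peaks, 1367 (17.7%) lay at divergent promoters, 210 (2.72%) at start sites of non-coding RNAs only and 4494 (58.2%) farther than 500 bp from any start site. In whole animals, a peak from few cells and a weak peak from many cannot be told apart.

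A divergent promoter serves a pair of genes that run away from each other, whereas a non-divergent promoter serves a gene whose upstream side holds the end of a neighbour, the inside of a larger gene or a long intergenic stretch. In flies many broadly active genes carry core promoter motifs such as the DNA replication-related element (DRE), bound by Dref, the core word of the insulator protein BEAF-32, and Ohler motifs 1, 6 and 7, whereas many genes with restricted expression carry a TATA box or an initiator (Inr). Directly upstream of active fly promoters the DNA is generally poor in nucleosomes and rich in A and T.

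Sequences under strong member summits are shown first, to give the base composition discussed further on, followed by member peaks that hold single motifs. They were taken from arms X, 2L, 3L and 3R and from chromosome 4 only, and outside annotated UTRs. The first 5 are members at ranks 1, 17, 21, 22 and 28 by signal, and those at ranks 5, 6 and 25 are not shown. Each is read 5′ to 3′ on the strand of its gene from the Release 6 genome (dm6), with the summit at base 51 unless stated. Capitals mark the motif named for that sequence and are absent where none of the BEAF core, the DRE or Ohler motifs 1, 6 and 7 was found. The first sequence has the BEAF core CGATA on the opposite strand. Positions were chr3L:19590561-19590661 (minus strand) for CG14100, chr3R:28326551-28326651 (minus) for larp, chr3R:23669814-23669914 (minus) for CG31145, chrX:2137288-2137388 (minus) for ph-p and chr3R:12449125-12449225 (plus) for CG18549. The larp and ph-p summits were in introns and the other 3 were intergenic.
CG14100: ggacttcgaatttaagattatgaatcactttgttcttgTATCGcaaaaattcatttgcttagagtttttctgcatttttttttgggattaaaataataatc
larp: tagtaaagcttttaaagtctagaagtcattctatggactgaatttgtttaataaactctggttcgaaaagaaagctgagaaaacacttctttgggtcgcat
CG31145: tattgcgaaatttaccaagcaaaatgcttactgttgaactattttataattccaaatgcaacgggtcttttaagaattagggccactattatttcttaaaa
ph-p: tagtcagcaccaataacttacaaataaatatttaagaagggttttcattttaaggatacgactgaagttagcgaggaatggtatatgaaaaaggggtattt
CG18549: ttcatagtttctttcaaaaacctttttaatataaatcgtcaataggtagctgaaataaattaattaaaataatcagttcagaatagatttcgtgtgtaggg

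On the arms shown, the strongest member with a DRE (TATCGATA, which contains the BEAF core) had rank 724 and was at chr3R:29220075-29220171 (plus strand), 47 bp upstream of eEF1gamma, a translation elongation factor subunit. On the arm not shown, the stronger members CG1827 and Alg3 with a DRE had ranks 129 and 287. Ohler motif 1 was at chrX:5322697-5322741 (minus), just upstream of Rnp4F, a splicing factor whose summit lay 5 bp inside the transcribed side and is not in the stretch shown. The E-box CAGCTG was at chrX:4666962-4667062 (minus), upstream of CG3009, and the GAGA factor motif GAGAGAG, on the opposite strand, at chr3R:29618876-29618976 (plus), upstream of CG1907. The CTCF core AGGTGGC was at chrX:523438-523538 (minus). That summit was in an intron, 262 bp upstream of the nearest start of elav, which encodes the pan-neuronal RNA-binding protein. Ohler motif 7 was searched as CANCNCTA, with C or T at the first N, and all 20 motifs were searched on both strands.
eEF1gamma: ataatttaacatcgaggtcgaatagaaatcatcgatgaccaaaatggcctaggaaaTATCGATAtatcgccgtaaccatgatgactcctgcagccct
Rnp4F: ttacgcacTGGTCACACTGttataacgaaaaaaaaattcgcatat
CG3009: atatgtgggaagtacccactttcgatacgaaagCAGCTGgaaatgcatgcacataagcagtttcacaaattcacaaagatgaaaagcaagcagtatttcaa
CG1907: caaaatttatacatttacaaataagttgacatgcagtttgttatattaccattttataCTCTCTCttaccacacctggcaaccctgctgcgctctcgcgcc
elav: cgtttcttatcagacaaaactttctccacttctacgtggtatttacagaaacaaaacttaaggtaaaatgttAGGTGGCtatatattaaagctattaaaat

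Member peaks spanned the whole range of strength. Ranked by the authors' signal value, whose scale the sources do not state, members ran from rank 1, at CG14100, to rank 7717, with a median rank of 3738, against a median rank of 3201 for peaks at divergent promoters. Of the strongest 100 peaks of the series, 24 were members and 33 were at divergent promoters. The top 25% of all peaks by signal held 450 of 1646 members (27.3%) and 425 of 1367 divergent promoter peaks (31.1%), a difference of −3.75 percentage points that passed Fisher's exact test over peaks (two-sided, adjusted p = 0.0339 over 3 shares). With the 7717 strongest peaks of a library, the same difference was −2.15, −7.9 and −4.29 points in replicates 1, 2 and 3, and an exact sign-flip permutation test over the libraries gave p = 0.25, the smallest that 3 libraries allow. Restricted to peaks matched in both other libraries, the difference shrank to −2.24, −1.53 and −2.13 points without replicates 1, 2 and 3 in turn and no longer passed (Fisher's exact test, adjusted p = 0.251, 0.421 and 0.29).

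Most members recurred in every library. The IDR cut keeps peaks for agreement between these same libraries, so high recurrence is in part set by that choice. A summit among the 7717 strongest of a library lay within 100 bp of 88.0% of members in replicate 1, 81.2% in replicate 2 and 89.4% in replicate 3. In all 3 libraries this held for 1129 members (68.6%), against 987 divergent promoter peaks (72.2%), a difference of −3.61 points (Fisher's exact test, adjusted p = 0.0339). The difference in single libraries was −1.9, −0.9 and −2.6 points (exact sign-flip permutation, p = 0.25). It did not pass with a start-site window of 1000 bp, at −2.55 points (Fisher's exact test, adjusted p = 0.0979), without replicate 1, at −2.57 points (adjusted p = 0.105), or without replicate 3, at −2.31 points (Fisher's exact test, adjusted p = 0.154). With members cut into 4 equal bins by rank, 98.3% of the strongest bin, 91.7% and 67.6% of the next and 16.7% of the weakest were matched in all 3 libraries. The weakest bin, at ranks 5764 to 7717, lies at the limit of 7717 peaks set on each library, so it loses matches by construction. In the whole library lists, which hold background peaks, 1595, 1525 and 1606 of the 1646 members had a summit within 100 bp in replicates 1, 2 and 3. The strongest member that missed a library was a peak 155 bp upstream of an internal start of Rtnl1, at rank 1005, with ranks of 990 in replicate 2 and 782 in replicate 3 and no summit within 100 bp in replicate 1.

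The 20 strongest members matched in all libraries were at genes of varied function, and their order was close to the same in each library. They were picked on a signal derived from these same libraries, which favours stable ranks. The peak at CG14100, a gene named here by its annotation number only, ranked 1 in every library and had its summit 87 bp upstream of the start. PNPase, which encodes a mitochondrial enzyme that degrades RNA, had rank 6 overall and ranks 7, 6 and 5 in replicates 1, 2 and 3, with the summit 82 bp downstream of the start in its 5′ UTR. larp, a La-related RNA-binding protein, had rank 17 and ranks 16, 15 and 21. ph-p, a subunit of Polycomb repressive complex 1, had rank 22 and ranks 19, 23 and 19. Its summit lay 483 bp upstream of a start inside the gene. All 4 of these peaks stayed near the top of each library. A second ph-p peak, at rank 444, lay 396 bp downstream of another start of the gene. The adjacent copy of ph-p, ph-d, had a member peak at rank 2486, and how reads from near-identical copies were placed is not stated in the sources.

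Growth, stress and hormone genes were also among the strongest. Sox14, a transcription factor induced by the steroid ecdysone, had rank 29 and ranks 31, 18 and 42 in replicates 1, 2 and 3, with the summit 252 bp upstream. eIF6, which acts in assembly of the large ribosomal subunit, had rank 30 and ranks 36, 29 and 31. Trp1, a protein of the endoplasmic reticulum translocation machinery, had rank 34 and ranks 34, 31 and 34. These 3 peaks differed little in rank between libraries. Hpf1, a partner of the poly(ADP-ribose) polymerase, had rank 51, Sesn, a stress-induced inhibitor of TOR signalling, rank 61, and the small heat shock gene Hsp27 rank 65. Ptpmeg2, a tyrosine phosphatase, had rank 80 and Rtnl1, a reticulon that shapes the endoplasmic reticulum, rank 81. The remaining genes of the 20 were CG1888 at rank 5, CG31145 at 21, GstE13, a glutathione S-transferase, at 25, CG18549 at 28, CG13921 at 48, CG13501 at 50, nebu at 52 and CG1607 at 66. Of the 20 summits, 18 lay upstream of the nearest start, the exceptions being PNPase and GstE13.

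Several genes had more than 1 member. The 1646 members had 1419 distinct nearest genes, of which 192 (13.5%) were nearest to more than 1. Ptpmeg2 had 6, at ranks 80 to 6988. Rtnl1 and SNF4Agamma, the gamma subunit of the AMP-activated kinase, had 5 each, and dnc, a cAMP phosphodiesterase, mtd and RapGAP1, which acts on a Rap GTPase, had 4 each. These 6 genes have 5 to 11 annotated start sites each, and members of 1 gene are not independent of each other. In all, 1165 members (70.8%) were nearest to the 5′ end of their gene and 481 (29.2%) to a start inside it. A second protein-coding gene started in the window of 136 members (8.26%), and a non-coding gene in that of 116 (7.05%).

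Member summits lay mostly on the upstream side of the start, as did those of divergent promoter peaks. The median summit was at −132 bp from the nearest start, where minus means upstream, with the middle 50% of summits between −251 and −52 bp, and 1407 summits (85.5%) were upstream. The share upstream was 82.7%, 85.5% and 84.8% among the strongest peaks of replicates 1, 2 and 3, a mean of 84.3% ± 1.46 (SD, n = 3), and the median position in single libraries averaged −133 bp ± 13.2 (SD, n = 3). Divergent promoter peaks were upstream of their nearest start in 82.6%, 82.3% and 84.3% in replicates 1, 2 and 3, a share close to that of members. Their median positions were −75, −83 and −79 bp, nearer the start than the −123, −148 and −128 bp of members. The 50 to 250 bp upstream held 833 members (50.6%), while 6.08% of member summits were within 25 bp of the start. Stronger members lay farther out, with medians of −160, −132, −106 and −110 bp from the strongest to the weakest of 4 equal bins by rank. The strongest against the weakest bin of each library had medians of −165 against −80 bp, −164 against −140 bp and −161 against −92 bp in replicates 1, 2 and 3. As the sonicated fragments ran from 200 to 800 bp per the labels, these positions are known less finely than single bases.

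**Figure D1:**
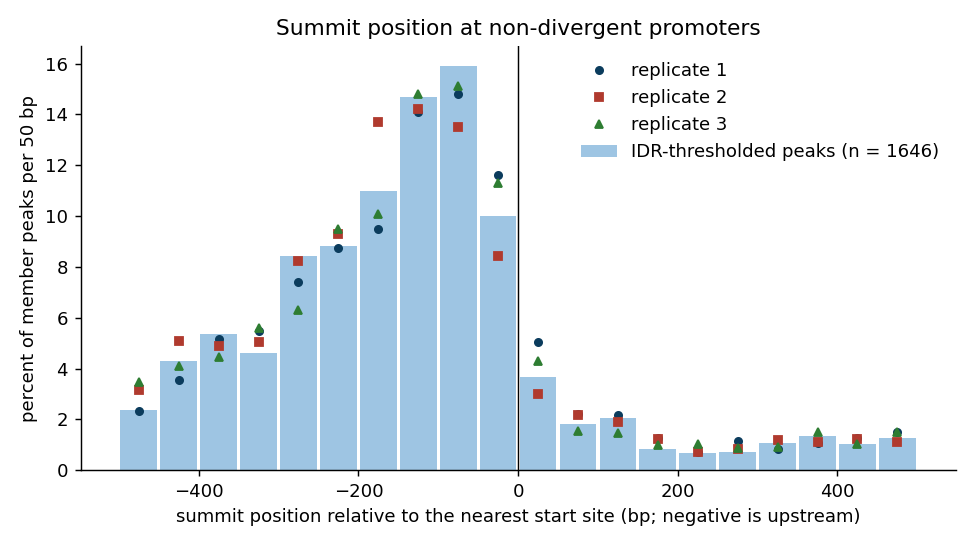
Percent of member peaks (y axis) per 50 bp of distance from the summit to the nearest start site (x axis, bp, negative upstream). Bars are the 1646 IDR-thresholded members and symbols the members among the 7717 strongest peaks of each replicate; the fullest bin, 50 to 100 bp upstream, held 15.9% of members, and each bin from 50 bp downstream on held 2.07% or less.

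By annotation, 813 member summits (49.4%) were intergenic, 515 (31.3%) in an intron, 218 (13.2%) in a 5′ UTR, 45 (2.73%) in a 3′ UTR, 43 (2.61%) in a non-coding exon and 12 (0.729%) in coding sequence. Of the divergent promoter summits, 63.2% were intergenic and 16.6% intronic. The intronic share of members was 30.7%, 31.2% and 30.3% in replicates 1, 2 and 3, against 17.4%, 17.6% and 15.1% for divergent promoter peaks, without overlap. This difference was not tested, since the 2 classes are defined by what lies upstream. Introns of the gene itself and of another gene were not told apart, and 29.2% of members were nearest to a start inside their gene.

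Of the 9295 non-divergent protein-coding genes, 1527 had a member peak within 500 bp of a start, a background of 16.4%. The share was 16.6%, 15.3% and 17.3% in replicates 1, 2 and 3, with a mean of 16.4% ± 1.01 (SD, n = 3). Among the 4650 divergent genes 2128 (45.8%) had a peak, with a mean over libraries of 44.9% ± 3.06 (SD, n = 3), and of 2409 divergent pairs 1214 (50.4%) did. The difference between non-divergent and divergent genes was −29.0, −26.3 and −30.3 points in the 3 libraries, many times the spread between them (mean −28.5 ± 2.04, SD, n = 3, exact sign-flip permutation, p = 0.25, the smallest possible). Divergent genes lie by rule near a second start, so both genes of a pair can be counted for 1 peak.

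Genes with more annotated starts offered more windows. Among non-divergent genes, 813 of 2377 with more than 1 start had a member peak (34.2%), against 714 of 6918 with a single start (10.3%). The same split in single libraries was 34.0% against 10.6%, 31.7% against 9.63% and 35.2% against 11.1%. For divergent genes the shares were 57.1% with several starts and 41.3% with 1, so the non-divergent share was the lower in both strata. Non-divergent genes with a member peak had a median length of 4453 bp, against 1899 bp without, and 53.2% of them had more than 1 start, against 20.1% without.

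Genes with a neighbour close upstream had a member peak more often, but the share did not change steadily with distance. Where the neighbour lay within 1000 bp, 571 of 3177 genes (18%) had a member peak, against 588 of 3991 (14.7%) where it lay farther away, a difference of 3.24 points (Fisher's exact test, adjusted p = 6.92e-04). It was 4.66, 1.0 and 3.72 points in replicates 1, 2 and 3 (exact sign-flip permutation, p = 0.25). On peaks matched in both other libraries it was 1.21 points without replicate 1 and did not pass (adjusted p = 0.133), while it passed at 3.05 points without replicate 2 and at 1.71 points without replicate 3 (Fisher's exact test, adjusted p = 5.53e-04 and 0.0339). Among genes with a single start it was 2.56 points (Fisher's exact test, adjusted p = 0.00963). Genes that start inside another gene stood between, with 368 of 2127 (17.3%). By finer classes the share was 15.4% at a gap of 0 to 250 bp, 22.5% at 251 to 500 bp, 16.4% at 501 to 1000 bp, 17.2% at 1001 to 2000 bp, 16% at 2001 to 5000 bp, 13.6% at 5001 to 10000 bp and 11.4% beyond. Of the 3 close classes, only that at 251 to 500 bp was above the class at 1001 to 2000 bp, and the nearest class was below it. The class at 251 to 500 bp was the highest and that beyond 10000 bp the lowest in every library. Within 1000 bp all upstream neighbours run in the same direction by rule. Beyond 1000 bp the share was 14.3% for a neighbour on the same strand and 15.2% for one on the other strand.

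**Figure D2:**
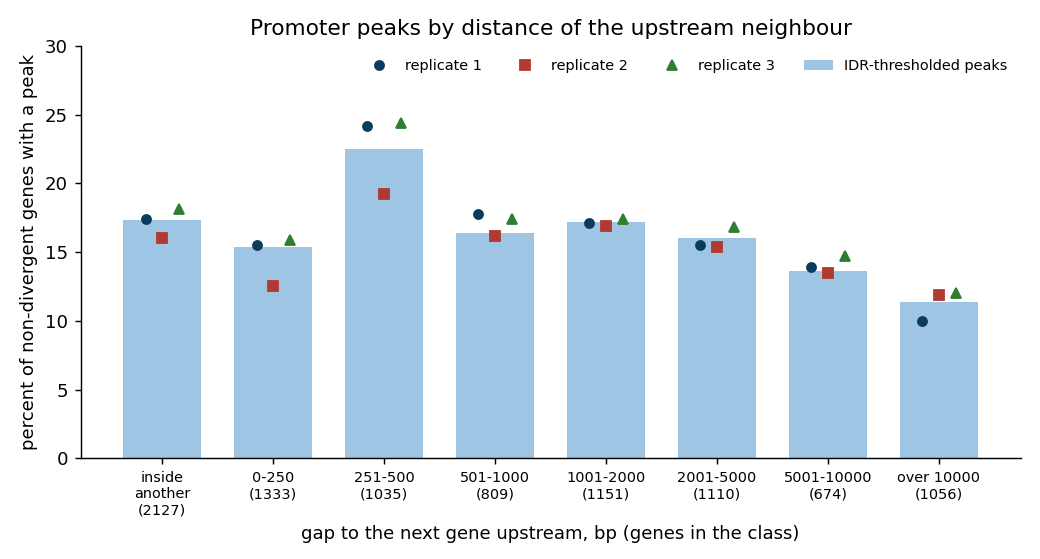
Percent of non-divergent protein-coding genes with a member peak (y axis) by the gap in bp between the gene's 5′ end and the next gene upstream (x axis, number of genes in brackets). Bars are IDR-thresholded peaks and symbols the 3 libraries; the class at 251 to 500 bp averaged 22.6% ± 2.93 and the class over 10000 bp 11.3% ± 1.12 (SD, n = 3).

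Non-divergent promoters with a member peak held the housekeeping motifs more often than those without. Here and below, a non-divergent promoter with a peak is the 5′ end of a gene with a member at any of its starts. Since 29.2% of members were nearest to a start inside their gene, some of these 5′ ends had no summit nearby. In the window from 250 bp upstream to 50 bp downstream of the 5′ end, 12 of 20 motifs differed between 1527 promoters with a member peak and 7742 without any (Fisher's exact test over promoters, Benjamini-Hochberg over 20 motifs), 9 of them more frequent with a peak and 3 less. Ohler motif 7 was found at 11.0% of promoters with a peak and 4.99% without (Fisher's exact test, adjusted p = 1.33e-15). In the libraries it was at 10.7% ± 0.239 with a peak and 5.08% ± 0.105 without (SD, n = 3). Ohler motif 1, bound by M1BP, was at 5.96% with and 2.2% without (Fisher's exact test, adjusted p = 2.35e-12). In the libraries it was at 5.91% ± 0.286 and 2.24% ± 0.0936 (SD, n = 3). The DRE was at 9.1% with and 5.14% without (adjusted p = 4.97e-08), the BEAF core at 47.8% and 39.7% (adjusted p = 2.89e-08), and Ohler motif 6 at 3.93% and 2.36% (Fisher's exact test, adjusted p = 0.00166). Over all 13945 protein-coding promoters, Ohler motif 7 was at 9.24%, Ohler motif 1 at 4.5%, the DRE at 9.36%, the BEAF core at 47.4% and Ohler motif 6 at 3.95%.

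Motifs of other factors were also more frequent with a peak. CAGCTG was at 20.1% of promoters with a peak and 14.7% without (adjusted p = 7.89e-07), and the GAGA factor motif at 9.76% and 6.64% (Fisher's exact test, adjusted p = 8.56e-05). The CTCF core was at 4.72% with and 2.8% without (adjusted p = 4.30e-04), and the TCT motif, known from ribosomal protein promoters, at 40.3% and 36.9% (Fisher's exact test, adjusted p = 0.0233). Over all promoters these were at 17.7%, 5.87%, 3.49% and 36.6%. The 3 motifs less frequent with a peak were the TATA box, at 40.7% with and 48.1% without (adjusted p = 3.72e-07), the Inr, at 59.6% and 67.2% (adjusted p = 6.41e-08), and the GATA motif, at 44.3% and 47.5% (Fisher's exact test, adjusted p = 0.0357). Over all promoters they were at 48.5%, 63.3% and 46.7%. The TATA box, Inr and TCT words are short and were counted anywhere in the window on either strand. A match therefore need not be a core promoter element at its usual place. Within 50 bp of member summits, matches on 1 strand only were on the gene's strand in 46.9% for the TATA box, 52.7% for Inr and 48.5% for TCT. The GATA difference did not pass without replicate 1, at −3.13 points, or without replicate 3, at −3.16 points (Fisher's exact test, adjusted p = 0.0735 and 0.0652). The other 8 motifs did not pass. Among genes with a single start 7 motifs were more frequent with a peak and 2 less. The calls for Ohler motif 6, TCT and GATA did not pass there (Fisher's exact test, adjusted p = 0.198 each). Other settings also ended calls. With summits within 250 bp, GAGA was at a difference of 1.0 points and GATA at −2.98 (Fisher's exact test, adjusted p = 0.318 and 0.0981). With the top 50% of peaks by signal, the BEAF core was at 3.43 points, Ohler motif 6 at 1.01 and GATA at −3.63 (Fisher's exact test, adjusted p = 0.0941, 0.12 and 0.085). With summits within 1000 bp, TCT was at 2.36 points (Fisher's exact test, adjusted p = 0.0906).

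**Figure D3:**
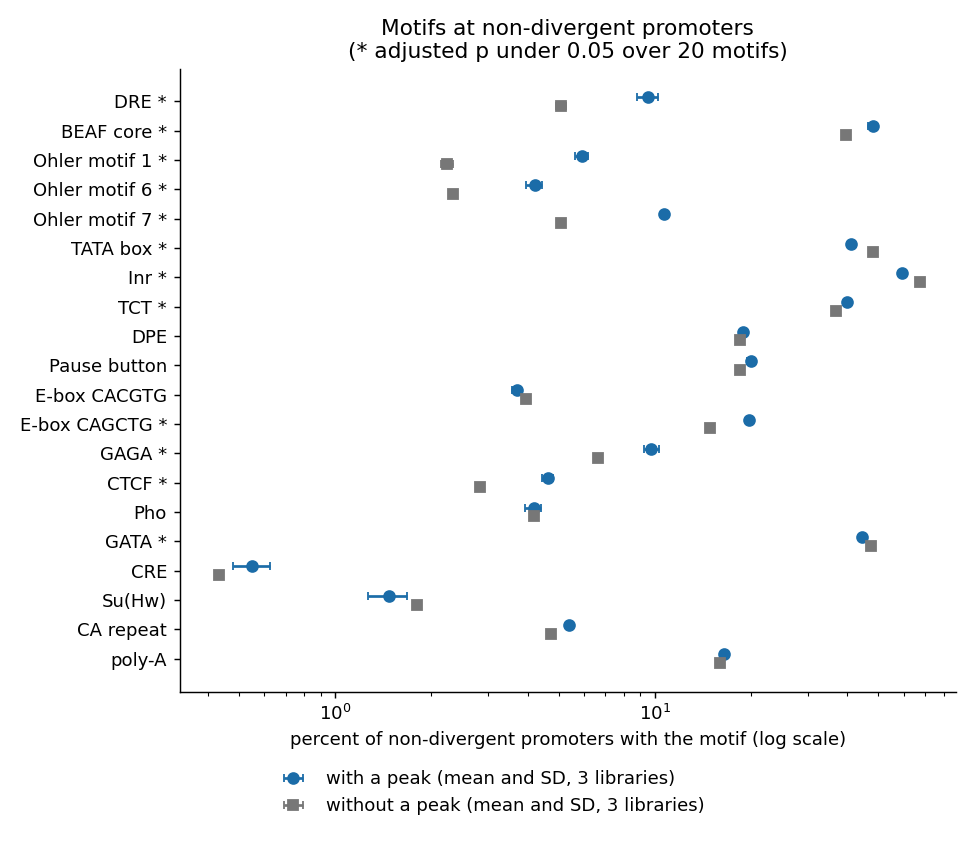
Percent of non-divergent promoters that hold each of 20 motifs (x axis, log scale) with a member peak (circles) and without (squares), as mean and SD over the 3 libraries. Ohler motif 7 stood at 10.7% with a peak and 5.08% without, and the TATA box at 40.9% and 48.1%; stars mark an adjusted p under 0.05 on the IDR-thresholded peaks.

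The share of promoters with a peak was larger where more of the DRE and Ohler motifs 1, 6 and 7 were found. With none of these 4 motifs 1144 of 7903 non-divergent promoters had a member peak (14.5%), with 1 of them 317 of 1191 (26.6%), and with 2 or more 66 of 201 (32.8%). Over the libraries the shares were 14.4% ± 0.672, 26.9% ± 3.06 and 33.0% ± 2.35 (SD, n = 3). The lowest library value with 2 or more motifs, 30.3%, was just above the highest with 1, 29.6%, and both classes lay far above promoters with none. Of non-divergent promoters with a DRE, 25.7% had a member peak, whereas 51.6% of divergent promoters with one had a peak. Ohler motif 7 gave 30.1% of 559 non-divergent and 64.5% of 730 divergent promoters. For Ohler motif 6 the shares were 24.4% and 47.9%, and for Ohler motif 1 they were 34.5% and 42.1%. The backgrounds were 16.4% of non-divergent and 45.8% of divergent genes. The divergent share with Ohler motif 1 was thus below its background. A single divergent window can hold the motifs of both genes.

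Directly under the summits, members held fewer DREs than divergent promoter peaks. Within 50 bp of the summit the DRE was at 45 members (2.73%), against 74 divergent promoter peaks (5.41%), with differences of −2.99, −1.89 and −2.53 points in replicates 1, 2 and 3 (Fisher's exact test over peaks, adjusted p = 0.00339 over 20 motifs). The BEAF core was at 345 members (21.0%), against 26.6%, with differences of −5.27, −4.6 and −4.71 points (adjusted p = 0.00339), and Ohler motif 7 at 57 members (3.46%), against 5.78%, with −2.06, −2.99 and −2.35 points (Fisher's exact test, adjusted p = 0.0176). All 3 were lower in members in every library, and the other 17 motifs did not pass. Every one of the 45 DRE matches is also a BEAF core match. These calls were sensitive to the libraries used. On peaks matched in both other libraries, the DRE did not pass without replicate 1 or without replicate 3, at −2.03 and −2.13 points, Ohler motif 7 not without replicate 2 or 3, at −2.06 and −2.14 points, and the BEAF core not without replicate 3, at −5.16 points. With a start-site window of 250 bp none of the 3 passed (Fisher's exact test, adjusted p = 0.226, 0.226 and 0.243). At peaks farther than 500 bp from any start the DRE was at 0.334%, the BEAF core at 10.2% and Ohler motif 7 at 1.25%.

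Where a member held one of these motifs, the motif lay nearer to the start than most summits did. As motifs were sought only within 50 bp of the summit, their positions follow the summits by construction. They describe which members held a motif, not where the motif lies in promoters at large. The DRE nearest to each summit was at a median of −48 bp from the start (middle 50% from −74 to −16 bp), Ohler motif 7 at −44 bp and Ohler motif 1 at −8 bp. Members with a DRE had their summit at a median of −46 bp and a median rank of 4973, against −137 bp and 3704 for members without. Ohler motif 1 was on the gene's own strand at 12 of 14 members and Ohler motif 7 at 42 of 55 members with matches on 1 strand only. For comparison, the TATA box was on the gene's strand at 97 of 207 such members. It lay at a median of −162 bp, and the summits of members with it at a median of −150 bp.

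Within the members, motif and base content changed with strength. In the outer of the 4 bins by rank, the DRE was at 4 of the 411 strongest members (0.973%) and at 16 of the 411 weakest (3.89%). In the libraries it was at 1.2% of the strongest bin and 6.02% of the weakest in replicate 1, 1.05% and 5.24% in replicate 2, and 0.926% and 4.4% in replicate 3. The BEAF core was at 14.6% of the strongest and 28.0% of the weakest bin, Ohler motif 7 at 1.95% and 4.38%, and the TATA box at 23.4% and 16.3%. Each kept its direction in all 3 libraries. The median share of A and T within 50 bp of the summit was 67.3% in the strongest bin and 62.4% in the weakest, and 67.3% against 60.4%, 67.3% against 62.4% and 68.3% against 62.4% in replicates 1, 2 and 3. These splits by strength use the same signal values that order the peaks and carry no test.

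Base composition around the 5′ end differed between non-divergent promoters with and without a peak. From 200 to 151 bp upstream, 65.5% ± 0.273 of bases were A or T with a peak and 62.4% ± 0.0893 without (SD, n = 3), and the difference was 3.09, 2.69 and 3.42 points in replicates 1, 2 and 3. In the last 50 bp before the start the order turned, with 53.9% ± 0.18 with a peak and 57.2% ± 0.037 without (SD, n = 3), and differences of −3.47, −3.28 and −3.07 points. Both differences were many times the spread between libraries (exact sign-flip permutation, p = 0.25 each, the smallest possible). The libraries share the same promoters, so their spread is that of the peak calls.

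**Figure D4:**
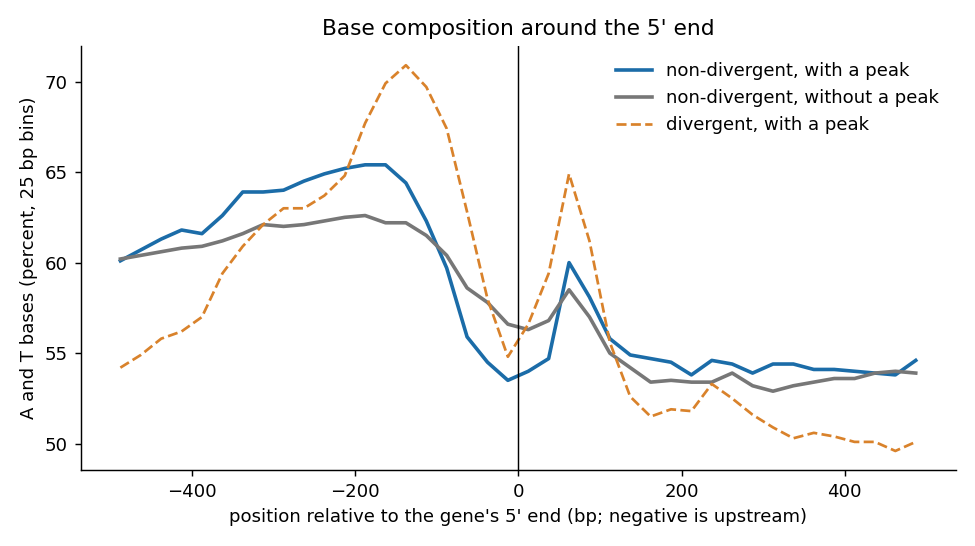
Percent of A and T bases (y axis) in 25 bp bins from 500 bp upstream to 500 bp downstream of the gene's 5′ end (x axis) for non-divergent promoters with a peak, without a peak, and divergent promoters with a peak. With a peak the upstream maximum was 65.4% at non-divergent promoters, in the bins from −200 to −151 bp, and 70.9% at divergent ones, in the bin from −150 to −126 bp; without a peak it was 62.6%.

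Among genes of the translation machinery, those for cytosolic ribosomal proteins and translation factors had member peaks more often than the background of 16.4% in every library. No list was tested, and divergent genes have their own background of 45.8%. Nor was any list split by number of starts, although the background was 10.3% with 1 start and 34.2% with more. Of 34 non-divergent genes for cytosolic ribosomal proteins 24 had a member peak (70.6%), and 76.5%, 64.7% and 73.5% in replicates 1, 2 and 3. In divergent ones it was 47 of 52 (90.4%). The strongest were RpL23A at rank 567, RpS4 at 1278 and RpL17 at 1535, with summits 15 to 75 bp from the start, and all 24 ranked below the strongest 500 peaks. Translation factors had 10 of 28 (35.7%), with 39.3%, 35.7% and 39.3% in the libraries, led by eIF6 at rank 30, eEF1gamma at 724 and eIF3h, an initiation factor subunit, at 858. Aminoacyl-tRNA synthetases had 3 of 12 (25%), with 33.3%, 16.7% and 25% in replicates 1, 2 and 3, near the background in replicate 2. They were SerRS at rank 257, beta-PheRS at 2073 and AlaRS at 6252. Mitochondrial ribosomal proteins had 2 of 18 (11.1%), mRpL9 at rank 5712 and mRpS5 at 7311. Their library shares of 16.7%, 11.1% and 22.2% lay around the background. The divergent share was 50% for translation factors, 43.5% for the synthetases and 36 of 57 (63.2%) for mitochondrial ribosomal proteins.

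Lists of energy metabolism, protein turnover, membrane traffic and splicing had member shares of 0% to 28.0%, around the background of 16.4%. Oxidative phosphorylation had 12 of 50 (24%), against 14 of 38 divergent ones (36.8%), with the complex I subunit ND-ASHI at rank 374, the cytochrome oxidase subunit COX5A at 1575 and COX7AL2 at 2705. Proteasome subunits had 6 of 26 (23.1%), against 9 of 22 divergent ones (40.9%), led by Rpn6 at rank 2623, Rpn8 at 3407 and Rpn10 at 4673. Autophagy and V-ATPase genes had 7 of 25 (28.0%), against 19 of 28 divergent ones (67.9%), with Vha100-2 at rank 114, in a window nearest to Vti1b, Vha16-1 at 1719 and VhaM9.7-c at 3142. Heat shock and chaperone genes had 4 of 18 (22.2%), Hsp27 at rank 65, Hsp26 at 793, Hsp60A at 4035 and Hsp110 at 6301, against 11 of 17 divergent ones (64.7%). Rab GTPases, which direct membrane traffic, had 2 of 15 (13.3%), Rab11 at rank 4024 and Rab1 at 5364, against 13 of 19 divergent ones (68.4%). No spliceosome gene of 7 had a member peak in any library, against 14 of 27 divergent ones (51.9%). The divergent shares thus lay on both sides of the divergent background of 45.8%.

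Lists of nuclear regulators had member shares of 31.8% to 50%, against the background of 16.4%. They were not split by number of starts, and the background was 34.2% for genes with more than 1 start. Cell cycle and replication genes had 11 of 22 (50%), with 40.9%, 36.4% and 59.1% in replicates 1, 2 and 3. They were led by the E2F partner Dp at rank 386, the replication licensing factor dup at 2337, in a window nearest to SRPK, and CycE at 3286. Chromatin and insulator genes had 6 of 13 (46.2%), with ph-p at rank 22, BEAF-32 itself at 1451 and ph-d at 2486, and the insulator proteins pita and CTCF at 3040 and 4448. General transcription and Mediator genes had 7 of 22 (31.8%), led by MED4 at rank 1033, the RNA polymerase subunit Polr2F at 1050 and TfIIA-S at 1347. Of 5 nuclear pore genes 2 had a member peak, Nup358 at rank 7399 and Nup107 at 7611, and the share in single libraries was 40%, 0% and 20%. Divergent genes had a peak in 62.5% for the cell cycle and 60.0% for chromatin and insulators. The divergent share was 51.2% for general transcription and Mediator and 52.6% for the nuclear pore, against the divergent background of 45.8%.

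Signalling genes of growth and metamorphosis had member shares of 26.3% to 46.2%, against the background of 16.4%. These shares were not split by number of starts, and non-divergent genes with more than 1 start had a share of 34.2%. Ecdysone response genes had 8 of 20 (40%), with 40%, 40% and 50% in replicates 1, 2 and 3. After Sox14 at rank 29 came the calcium-binding protein gene Eip63F-1 at 378 and the nuclear receptor gene Eip75B at 530. The receptor genes usp and EcR followed at 1443 and 5371, Eip74EF at 3065, ImpL2, an insulin-binding protein, at 4709, and br at 7078. Insulin and TOR genes had 6 of 13 (46.2%), with REPTOR, a transcription factor held back by TOR, at rank 115, the kinase sgg at 151 and the kinase adaptor Pi3K21B at 517. InR and foxo had ranks of 1368 and 3771. The libraries differed for this list, with 69.2%, 38.5% and 46.2% in replicates 1, 2 and 3, and 3 of 7 divergent genes (42.9%) had a peak. Notch pathway genes had 5 of 19 (26.3%), led by the corepressor gro at rank 111 and by E(spl)m3-HLH and E(spl)m7-HLH at 548 and 1530, with N itself at 5574. Among divergent genes, 3 of 5 ecdysone response genes and 4 of 6 Notch pathway genes had a peak.

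Genes of specialised tissues seldom had a member peak, against backgrounds of 16.4% for all non-divergent genes and 10.3% for those with 1 start. None of 108 cuticle genes and none of 6 glue and Eig71E genes had one, although 0.926% of the cuticle genes did in replicates 1 and 3. Chemoreception genes had 2 of 199 (1.01%), the odorant-binding protein genes Obp83g at rank 2368 and Obp99b at 3260. Muscle structure genes had 1 of 21 (4.76%), the titin-like sls at rank 1841, and neuronal genes 2 of 28 (7.14%), elav at rank 267 and the microtubule-associated futsch at 5642. Imaginal disc patterning genes had 2 of 35 (5.71%), smo at rank 4108, in a window nearest to CG17078, and so at 5362. None of 8 Hox genes had one, with 12.5% in replicate 2 alone. Cytochrome P450 genes had 5 of 71 (7.04%), led by Cyp6u1 at rank 211, in a window nearest to Ufsp1, Cyp6v1 at 1729 and Cyp6a2 at 2614. Among divergent genes, 3 of 5 muscle, 1 of 6 neuronal, 2 of 32 chemoreception and 1 of 11 cytochrome P450 genes had a peak. None of 13 cuticle, 16 glue and Eig71E or 2 disc patterning genes that are divergent had one. Lists of a few genes give coarse shares, and their genes were described by counts only.

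**Figure D5:**
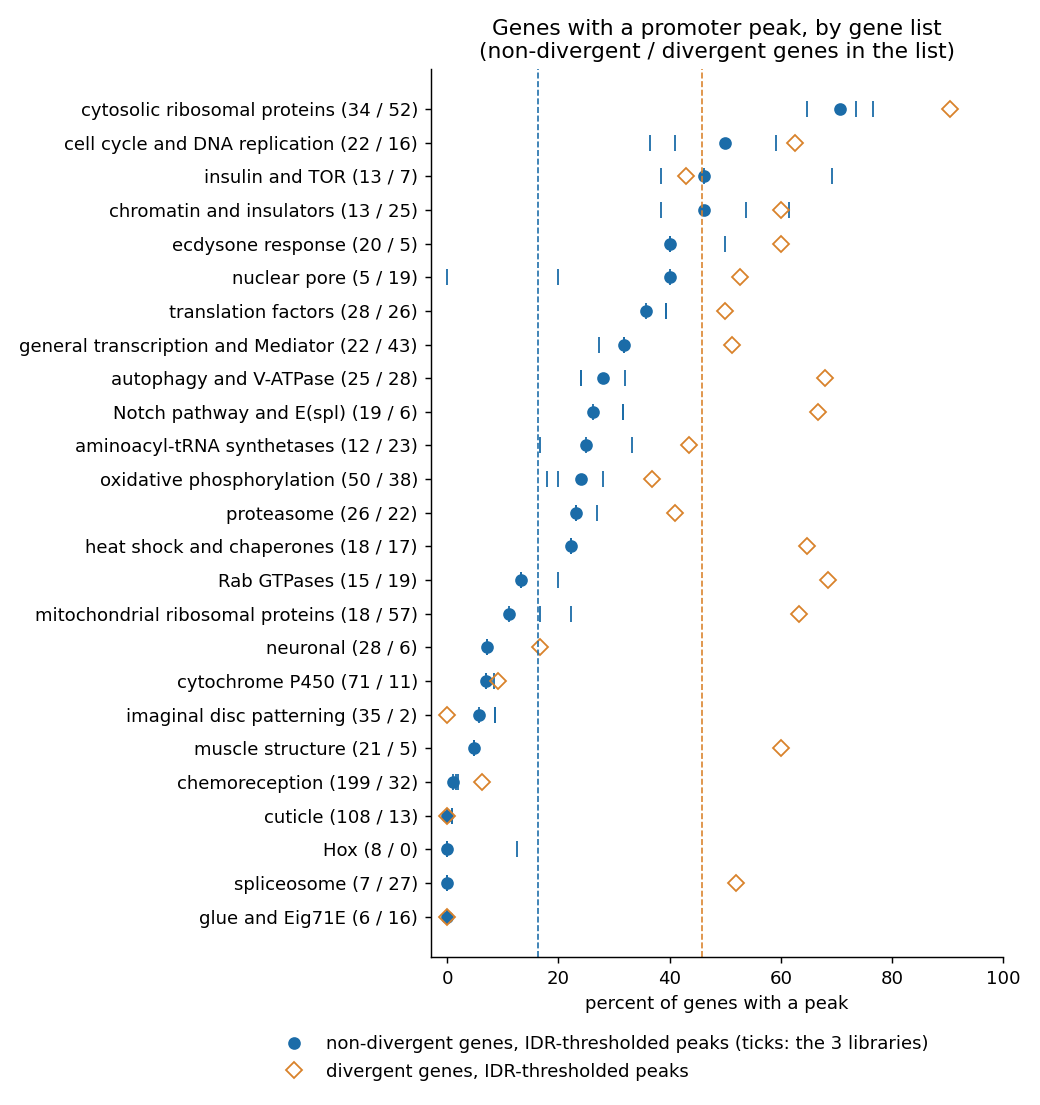
Percent of genes with a peak (x axis) in each of 25 gene lists (y axis, with the numbers of non-divergent and divergent genes). Filled circles are non-divergent genes, with ticks for the 3 libraries, and open diamonds divergent genes; dashed lines are the backgrounds of 16.4% and 45.8%, and cytosolic ribosomal proteins stand highest at 70.6% and 90.4%.

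By chromosome arm, the share of non-divergent genes with a member peak ran from 15.2% on 3L to 19.2% on X and 26.6% on the small chromosome 4. On 2L, 2R and 3R it was 16%, 15.9% and 16.1%. X had 18.3%, 18.3% and 20.8% in replicates 1, 2 and 3, above the other long arms in every library. Chromosome 4, with 17 of 64 genes, had 31.2%, 18.8% and 34.4%. The CG31627 gene itself, at 21173222 to 21174179 on 2L (plus strand), is non-divergent and had no peak at its start, and the nearest summit was 4770 bp away.

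The window and the divergence limit cut through a continuum. Just inside the window were the peaks of mmy at 499 bp and RhoGAP18B at 500 bp, with signal values of 198 and 125 as the authors give them. Just outside it, at 501 bp each, were those of CG17896 and Cyp310a1, with signal values of 1582 and 463. Members closest to the divergence limit were at Nep1, whose partner raptor starts 1004 bp away, and CG11961, whose partner Rgk1 starts 1007 bp away. Peaks of the pairs CG32767 with CG15465 and rg with CG32767, each 991 bp apart, were just short of it and were not members.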

How the data were processed

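Chromatin immunoprecipitation libraries were 3 biological replicates of whole white prepupae expressing CG31627-GFP. The authors deposited narrowPeak lists on dm6 with 30000, 28593 and 25547 peaks for replicates 1, 2 and 3, 27240 for the pooled libraries and 7717 past an IDR threshold. Each peak has the authors' signal value, a score of unstated scale used here only to rank peaks, and a q-value deposited as −log10. The library and pooled lists hold background on purpose, per the deposited listing. No source used here names the aligner or the peak caller. With no read counts in the lists, the depth is unknown and no counting interval can be given. One peak of replicate 2 on chromosome Y was left out, and lists on another build were not used.

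Summits were set against Ensembl release 115 genes and the Release 6 sequence with Python 3.11.15, numpy 2.4.6, scipy 1.17.1, pandas 2.3.3 and matplotlib 3.10.9. Divergence was measured between the 5′ ends of protein-coding genes. Library values used the 7717 strongest peaks of each library. Peak and promoter counts were compared with two-sided Fisher's exact tests, adjusted by Benjamini-Hochberg over 3 shares or 20 motifs at 0.05; they treat peaks and genes as separate although neighbours and several peaks of a gene are not independent. Where 1 of the 3 shares was tested under another setting, its p-value was adjusted together with the main p-values of the other shares. Libraries were compared with an exact sign-flip permutation test. Replicates were biological per the labels. Motifs not spelled out in the results were Ohler motifs 1 and 6, the TATA box (TATANAN), Inr (TCANTN), the polypyrimidine initiator of ribosomal protein genes (NCTTTNN), DPE (NGNNGTG), the pause button (NCGNNCG), the palindromic E-box CACGTG, Pho (GCCATNTT), the CREB site (TGACGTCA), the GATA site (NGATAN), Su(Hw) (TGCATANTT), the CA repeat of 4 units and a run of 8 A, where N stands for a choice of letters. Sequence in annotated UTRs is not shown, and some items are not reported here. The members, the 25 gene lists and the motifs were chosen with earlier results of these data known. Named genes were those nearest the 20 strongest members matched in all libraries, the 3 strongest of each list, those at the thresholds, the strongest off arm 2R with each motif past a test, and CG31627; CG1827, Alg3, SNF4Agamma, dnc, mtd and RapGAP1, and further members of some lists, were named after their values were seen. The Rab3-GAP genes, which are not Rab GTPases, were taken off that list after its values were seen. The classes and positions of summits were checked with summits placed at known sites, and the motif test on random sequences. The other tests were not checked on simulated data.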

Additional observations from a re-analysis of the deposited data

Results flagged for a closer look

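Peaks of the pooled list that did not pass the authors' IDR threshold are outside the comparisons above. Of the 5250 such peaks with a q-value of 0.05 or less, 1020 (19.4%) lay at non-divergent protein-coding promoters by the same rule. They were flagged as signal in data that the comparisons did not use. They add 782 non-divergent genes to the 1527 with a member peak. Member summits were upstream of the nearest start in 85.5% of cases, at a median of −132 bp, and the summits of these weaker peaks in 72.7%, at a median of −74 bp. Control data were not analysed here, so no level in control samples can be given.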

How the results depend on the processing

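The number of members ran from 1145, with a window of 250 bp, to 2124, with a window of 1000 bp, and stayed within 1.5 times of 1646 under all 10 alternatives. The share of summits upstream was 83.8% with gene 5′ ends as the only start sites, 87.0% with the 250 bp window and 79.0% with the 1000 bp window. The share of non-divergent genes with a peak was 12.4% within 250 bp, 19.8% within 1000 bp, 14.0% with gene 5′ ends, 9.09% with the top 50% of peaks by signal, 10.3% with single-start genes and 12.7% to 13.7% without 1 replicate. The difference from divergent peaks in recurrence was −2.55 points with the 1000 bp window (Fisher's exact test, adjusted p = 0.0979) and −3.88 to −2.31 without 1 replicate. That in the top 25% was −2.24 to −1.53 without 1 replicate, and the difference by upstream neighbour 1.21 to 3.05.

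Of the motifs at summits, 1 was lower in members within 25 bp and 0 with the 250 bp start-site window. Within 100 bp, 2 were higher, TCT at 31.3% against 26.3% and GAGA at 4.5% against 1.9%, and 6 were lower. Without 1 replicate 0 to 2 were lower. At promoters, counts stayed within 1.5 times of 9 and 3, but the calls for GAGA, the BEAF core, Ohler motif 6, TCT and GATA were each lost under at least 1 alternative, with the values given above. None of the results reversed, and the cause of the changes was not tested. The alternatives on single-start genes were added after seeing the data. No paired analysis was possible because there is a single group of samples.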
